A study of Mus musculus with 8 samples.

Results

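Cathepsins are the proteases of the lysosome. The account covers the 10 cathepsin genes Ctsa, Ctsb, Ctsc, Ctsd, Ctse, Ctsh, Ctsk, Ctsl, Ctss and Ctsz, chosen by gene symbol in the platform's annotation, out of 19937 genes measured with a symbol of their own. Each of the 10 had 1 probe set. They were measured in cultured primary hepatocytes, the metabolic cells of the mouse liver, on 8 whole-transcript arrays in 4 groups of 2. Control cells came from HO1+/+ mice and carried a scrambled short hairpin RNA (shRNA), and HO1 knockout cells came from HO1-/- mice and carried the same scrambled shRNA. HO2 knockdown cells came from HO1+/+ mice and carried an shRNA against HO2, and combined cells came from HO1-/- mice and carried the HO2 shRNA. HO1 and HO2 are the heme oxygenases, enzymes that degrade heme and release carbon monoxide, iron and the bile pigment biliverdin.

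All groups shared the BALB/c background, male sex, isolation by collagenase perfusion and a Percoll gradient, lentiviral transduction, puromycin for 3 days, and 1 µM dexamethasone for 30 min with harvest 28 h later. The HO2 groups rest on 1 hairpin. The age of the mice is not given in the sources used here. The labels call the 2 arrays of a group biological replicates and do not say if separate animals or dishes gave them, so p-values measure only the spread between these arrays. Liver cells were prepared separately from mice of each genotype, so genotype and preparation cannot be told apart.

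Cathepsins are made as inactive precursors, reach lysosomes through mannose 6-phosphate receptors or sortilin, and mature at acid pH, in part by cutting one another and in part by legumain. Most are cysteine proteases (Ctsb, Ctsc, Ctsh, Ctsk, Ctsl, Ctss and Ctsz), while Ctsd and Ctse are aspartic and Ctsa is a serine carboxypeptidase. Cathepsins B, D, L, A, H and Z are found in nearly every cell, hepatocytes included. Cathepsin S is known from macrophages, dendritic cells and B cells, where it trims the invariant chain from class II molecules, and cathepsin K is best known as the collagenase of osteoclasts. Cathepsin C activates the granule proteases of blood cells, and cathepsin E is an endosomal protease of immune and epithelial cells. This textbook distribution ties Ctsc, Ctse, Ctsk and Ctss to macrophages, other blood and immune cells, osteoclasts or epithelium. They were set as a class called macrophage-enriched here, and the other 6 members as broadly expressed. The class name is a label, and these data do not establish it for each member. Ctsc and Ctse were above the median signal of all genes on all 8 arrays, Ctss on 4 and Ctsk on 0.

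Promoters are shown for 4 members. Ctss and Ctsk lie side by side on the same chromosome. In HO1 knockout against control Ctss rose by 3.95 and Ctsk, measured near background, by 0.34. Ctsd and the second entry of Ctsa hold TCACGTGA, the longer E-box palindrome counted below. RefSeq promoter entries (GRCm38.p6, 250 bases before to 50 after a start) were matched for 7 of the 10 members, and Ctsb, Ctse and Ctsh had no entry. Each line runs 5′ to 3′ on the gene's strand from base -250 to base 20. Capitals in Ctss and Ctsk mark GAGGAA or its reverse complement, the core letters that ETS family factors such as PU.1 bind, and in Ctss also 1 match to GAAA, any 2 bases, GAAA, the interferon-stimulated response element of interferon regulatory factors. Capitals in Ctsd and Ctsa mark CACGTG, the E-box core that TFEB and its relatives, but also clock factors and MYC, can bind. The lines cover chr3:95526536-95526805 (+) for Ctss, chr3:95498960-95499229 (+) for Ctsk, chr7:142387808-142388077 (-) for Ctsd and chr2:164833523-164833792 (+) for the second entry of Ctsa.
Ctss: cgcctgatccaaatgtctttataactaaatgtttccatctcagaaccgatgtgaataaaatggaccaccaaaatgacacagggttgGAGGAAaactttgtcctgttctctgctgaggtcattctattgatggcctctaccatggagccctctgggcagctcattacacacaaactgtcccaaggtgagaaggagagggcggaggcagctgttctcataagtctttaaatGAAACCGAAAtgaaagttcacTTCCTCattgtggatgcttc
Ctsk: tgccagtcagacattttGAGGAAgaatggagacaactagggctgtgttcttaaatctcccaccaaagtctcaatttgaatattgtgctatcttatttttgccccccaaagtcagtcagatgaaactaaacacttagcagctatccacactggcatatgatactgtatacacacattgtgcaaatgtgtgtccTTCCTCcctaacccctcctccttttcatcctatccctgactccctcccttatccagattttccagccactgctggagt
Ctsd: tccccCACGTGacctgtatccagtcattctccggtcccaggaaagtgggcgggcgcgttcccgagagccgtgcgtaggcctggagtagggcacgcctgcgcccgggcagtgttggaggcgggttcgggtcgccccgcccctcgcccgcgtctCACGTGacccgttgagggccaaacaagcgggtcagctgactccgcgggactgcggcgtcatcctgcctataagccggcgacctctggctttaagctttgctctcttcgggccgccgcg
Ctsa: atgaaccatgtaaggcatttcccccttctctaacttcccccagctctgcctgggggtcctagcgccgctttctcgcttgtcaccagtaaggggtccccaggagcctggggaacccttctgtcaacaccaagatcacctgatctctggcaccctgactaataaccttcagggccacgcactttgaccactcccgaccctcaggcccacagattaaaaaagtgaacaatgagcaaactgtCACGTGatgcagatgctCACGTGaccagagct

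The motifs were searched on both strands in the 300 bases of each entry, and were chosen with results of these data known. GAGGAA was found in 28.3% of 32851 mouse promoter entries, and among the cathepsins in Ctss, Ctsk and Ctsc. The interferon element's letters were found in 3.44% of entries and among the cathepsins in Ctss alone, as GAAACCGAAA at -21 to -12. CACGTG was found in 7.15% of entries, and among the cathepsins in Ctsd, Ctsl and the second entry of Ctsa. The longer palindrome TCACGTGA, which contains CACGTG, was found in 0.974% of entries, and lay in Ctsd at -99 to -92 and in Ctsa at -13 to -6 and 5 to 12. The AP-1 letters TGANTCA, found in 7.81% of entries, were in none of the members' entries, and Ctsz and the first entry of Ctsa held none of these motifs. A match is a run of letters, and no factor's binding was measured. Ctss and Ctsk both hold GAGGAA, and its part in their signals was not tested.

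Signals are log2 values as deposited, so a difference of 1 is a doubling. Differences were tested with limma's moderated test across all genes with Benjamini-Hochberg adjustment, two-sided, and a gene is called at an adjusted p under 0.05. Replicate arrays correlated at r = 0.997 to 0.999 over all genes. Hmox2, which encodes HO2, fell by 3.14 in HO2 knockdown against control (SE 0.0648, limma adjusted p = 2.59e-14). It fell less in combined against HO1 knockout (-2.30, limma adjusted p = 7.57e-13), and was 0.94 higher in combined than in HO2 knockdown (adjusted p = 2.4e-08). The difference between the shRNA effects in the 2 genotypes was 0.84 for Hmox2 (limma adjusted p = 3.86e-05). The part of this unequal knockdown in the cathepsin differences was not tested. Hmox1, which encodes HO1, was not lower but higher on the arrays labelled HO1-/-, by 0.54 in HO1 knockout against control (limma adjusted p = 3.37e-07). Where the probe set lies relative to the deleted part of the gene is not given in the sources used here, so Hmox1 does not check the genotype label, and HO1 knockout and HO1-/- stand for the labels throughout. Of 13 measured hepatocyte markers, 11 were above the median signal of all genes on every array.

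In HO1 knockout against control, 5 of the 10 cathepsins rose and 1 fell, where 5.62% of all genes rose and 7.2% fell (12.8% called either way). Ctss rose by 3.95, and Ctsb, Ctsh, Ctsk and Ctsd rose by 0.30 to 0.51. Ctse fell. In the other contrast of the same genotypes, combined against HO2 knockdown, which shares no array with it, 6 rose and 2 fell, against 13% and 21% of all genes (34% called). Higher genes were 38.2% of all called there, and 24.1% once arrays were centred on their medians. The median log2 fold change of the 10 members was 0.21 in the former and 0.28 in the latter, beside -0.04 and 0.02 for all genes. Ctss was the 1 member that changed by at least 2-fold in either contrast, and the 19th and the 6th highest of 19937 genes.

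The HO2 shRNA moved cathepsins in both directions. In HO2 knockdown against control, 3 rose and 3 fell, where 16.5% and 16.7% of all genes did (33.2% called). Of all called genes 49.7% were higher there, and 62.9% once arrays were centred on their medians, while no called cathepsin changed direction. In combined against HO1 knockout, 3 rose and 3 fell, against 10.2% and 12.8% (23% called). The members' median was 0.03 in the former and 0.01 in the latter, beside -0.07 and 0.01 for all genes. The largest changes in these contrasts, -0.54 and -0.86, were those of Ctsc. Hepatocyte markers moved in the same contrasts, 12 of 13 higher and 1 lower with a median of 0.93 in the former, and 11 higher and 0 lower with a median of 0.57 in the latter. The log2 of their summed signal was 15.69 to 15.72 in control, 16.07 in HO1 knockout, 16.61 to 16.66 in HO2 knockdown and 16.76 to 16.79 in combined, and their part in the cathepsin differences was not tested. In combined against control, which shares its arrays with the contrasts above, 7 rose and 2 fell, against 11.6% and 18.3% (29.9% called). Ctsz was the 1 member not called there. HO1 knockout against HO2 knockdown, used below only to order neighbouring groups, had 5 members higher and 1 lower, against 15.6% and 21% of all genes (36.6% called).

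The position of single arrays was also read, without a test. It comes from the same 8 arrays and is no separate support. The 4 arrays labelled HO1-/- lay entirely above the 4 HO1+/+ arrays for 4 members, Ctsb, Ctsd, Ctsk and Ctss, as they did for 4.82% of all genes. They lay entirely below for 1 member, Ctse, and for 8.05% of genes. The 4 HO2 shRNA arrays lay entirely below the 4 scrambled arrays for Ctsc alone (10.9% of genes) and entirely above for 0 members (9.58% of genes). Ctsh, called higher in both genotype contrasts, overlapped between genotypes. Ctsb, called lower in both shRNA contrasts, and Ctsh, called higher in both, overlapped between hairpins.

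**Figure D1:**
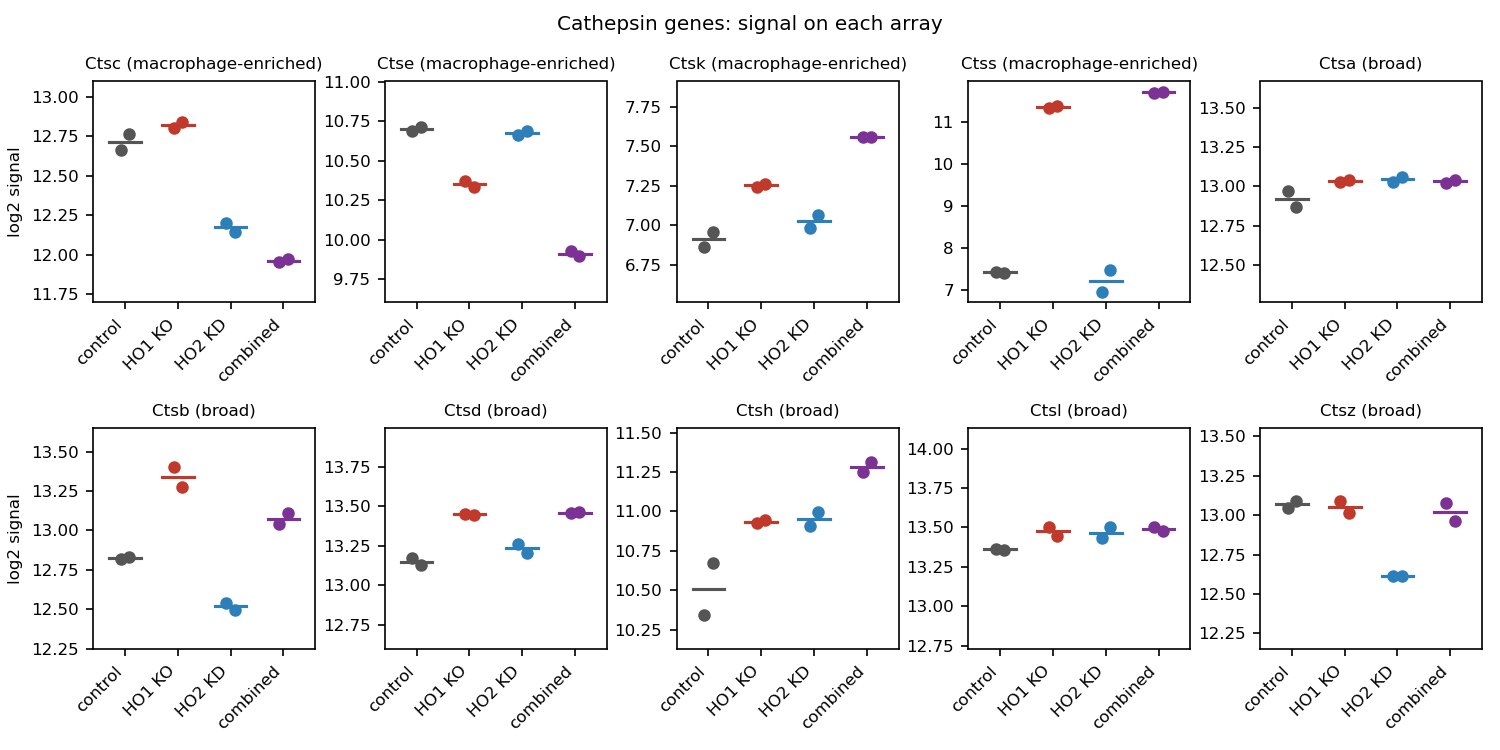
Log2 signal of the 10 cathepsin genes on each of the 8 arrays, by group (KO, knockout; KD, knockdown), with a dot for each array and a bar for the group mean; the axes differ between panels. Ctss lies between 6.94 and 7.47 on the HO1+/+ arrays and between 11.34 and 11.73 on the HO1-/- arrays, while the other 9 members move by less than 1 between any 2 groups.

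Ctss encodes cathepsin S and lies at chr3:95526786-95556405 (GRCm38.p6). Its log2 signals were 7.43 and 7.40 in control, 6.94 and 7.47 in HO2 knockdown, 11.34 and 11.38 in HO1 knockout, and 11.70 and 11.73 in combined. All 4 HO1+/+ arrays were below the median signal of all genes on their array and all 4 HO1-/- arrays were above it. The difference was 3.95 (SE 0.117) in HO1 knockout against control, 15.4-fold (limma adjusted p = 4.13e-13), and 4.51 (SE 0.117) in combined against HO2 knockdown, 22.8-fold (limma adjusted p = 8.87e-14). A dim probe set carries background, so a fold change of array signals understates a large difference.

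The HO2 shRNA moved Ctss little beside this. Control and HO2 knockdown arrays overlapped, with a difference of -0.21 (SE 0.117, limma adjusted p = 0.175), which became a call without HO2 knockdown replicate 2 (-0.48, adjusted p = 0.000455). Combined was 0.35 above HO1 knockout (SE 0.117, limma adjusted p = 0.0401). That call was lost without any 1 of the HO1 knockout or combined replicates 1 and 2 (0.33 to 0.37, adjusted p = 0.12 to 0.197), and also without the mean-variance trend (adjusted p = 0.117) or with a robust variance (0.0545). The group means ran in the order combined, HO1 knockout, control, HO2 knockdown. The call between the first pair was unstable, lost in 8 of 20 alternatives, and the last pair did not differ beyond its spread.

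Among all genes, the 5 whose centred values over the 8 arrays were closest to those of Ctss were Tlr7, C1qb, Fcer1g, Lyz2 and Mrc1. Their root mean square differences from it were 0.14, 0.16, 0.16, 0.23 and 0.23. Tlr7 encodes an endosomal receptor for RNA, C1qb a chain of complement C1q, Fcer1g an Fc receptor chain, Lyz2 lysozyme and Mrc1 the mannose receptor. No other cathepsin spanned 1 or more between group means, so none was given such a comparison.

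Most macrophage markers moved with Ctss. Of 20 measured, 15 rose and 1 fell in HO1 knockout against control, with a median of 2.54, against 5.62% and 7.2% of all genes. In combined against HO2 knockdown 15 rose and 0 fell, with a median of 2.66, against 13% and 21%. Adgre1, the gene for F4/80, rose by 4.65 and 3.40, Lyz2 by 4.54 and 4.60, and Csf1r, the receptor for the macrophage growth factor, by 2.66 and 2.73. The 1 that fell in HO1 knockout against control was Vsig4, at -1.07, the lowest of the list. In combined against control Vsig4 was at 0.28 and not called (limma adjusted p = 0.135). The log2 of the summed marker signal was 13.04 to 13.08 in control and 12.84 to 12.90 in HO2 knockdown, and rose to 15.48 to 15.51 in HO1 knockout and 15.44 to 15.52 in combined. Of the list, Clec4f, Marco, Cd163, Vsig4, Timd4 and Cd5l were above the array median on 0 arrays; Clec4f, Vsig4 and Timd4 mark resident Kupffer cells. In a bulk sample more cells of a type and more RNA per cell cannot be told apart, and the part of macrophage RNA in the Ctss difference was not tested.

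Markers of other cells were counted in the same contrasts, where 5.62% and then 13% of all genes rose and 7.2% and then 21% fell. In HO1 knockout against control 0 of 8 dendritic cell markers and 0 of 8 B and T cell markers were called by limma, and in combined against HO2 knockdown 2 and 1 rose and 0 fell. The highest was Itgax, a marker of dendritic cells that macrophages also express, at 1.24. In each of these lists 7 of 8 were above the array median on 0 arrays. Of 10 neutrophil markers 2 rose in the former contrast and 1 in the latter, and all 10 were above the array median on 0 arrays. Of 13 hepatocyte markers 10 rose and 1 fell in the former, with a median of 0.37, and 6 rose and 2 fell in the latter, with a median of 0.14. Of 10 sinusoidal endothelial markers 4 and then 7 rose and 0 fell. Their medians were 0.23 and 0.41, with single genes up to 3.18 and 2.51. Of these 10, 6 were above the array median on 0 arrays, namely Pecam1, Stab2, Kdr, Tek, Clec4g and Oit3. Of 10 stellate cell and fibroblast markers 0 and then 2 rose and 6 and then 5 fell.

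Ctsk encodes cathepsin K and lies at chr3:95499210-95509387, 17.4 kb from Ctss and on the same strand. Its signals were 6.86 and 6.96 in control, 6.98 and 7.07 in HO2 knockdown, 7.24 and 7.26 in HO1 knockout and 7.56 in both combined arrays. The HO1-/- arrays did not overlap the HO1+/+ arrays, but all 8 were below the array median, so Ctsk was measured near background. It was 0.34 higher in HO1 knockout than in control (SE 0.0956, limma adjusted p = 0.0261) and 0.53 higher in combined than in HO2 knockdown (SE 0.0956, limma adjusted p = 0.000521). The former call was lost without control replicate 1, HO1 knockout replicate 1 or 2, or combined replicate 1 or 2 (0.29 to 0.35, adjusted p = 0.0527 to 0.133), with array weights (0.0593) and in a fit of these 4 arrays alone (0.108). Combined was 0.31 above HO1 knockout (limma adjusted p = 0.0284), a call lost without any 1 of those 4 arrays (adjusted p = 0.0986 to 0.151). HO2 knockdown against control gave 0.12 (limma adjusted p = 0.376), and the middle of the order, HO1 knockout above HO2 knockdown, was not called either (0.23, adjusted p = 0.0775).

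Within 300 kb of Ctss lay 20 other measured protein-coding genes. In HO1 knockout against control 5 of them rose, Ctsk among them, and none fell, with changes from -0.18 to 0.38. Of all genes 5.62% rose and 7.2% fell there. In combined against HO2 knockdown 2 rose, Ctsk by 0.53 and Tars2 by 0.19, and 6 fell, with changes from -0.53 to 0.53, where 13% and 21% of all genes did. The measured genes that flank the pair, Arnt and Hormad1, were at -0.03 and -0.03 in the former contrast. In the latter Arnt fell by 0.17 (-0.17, limma adjusted p = 0.0199), and Hormad1 was at 0.24 and not called (adjusted p = 0.119). The large change on this stretch of chromosome 3 was that of Ctss. This window was set after the Ctss result was known.

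**Figure D2:**
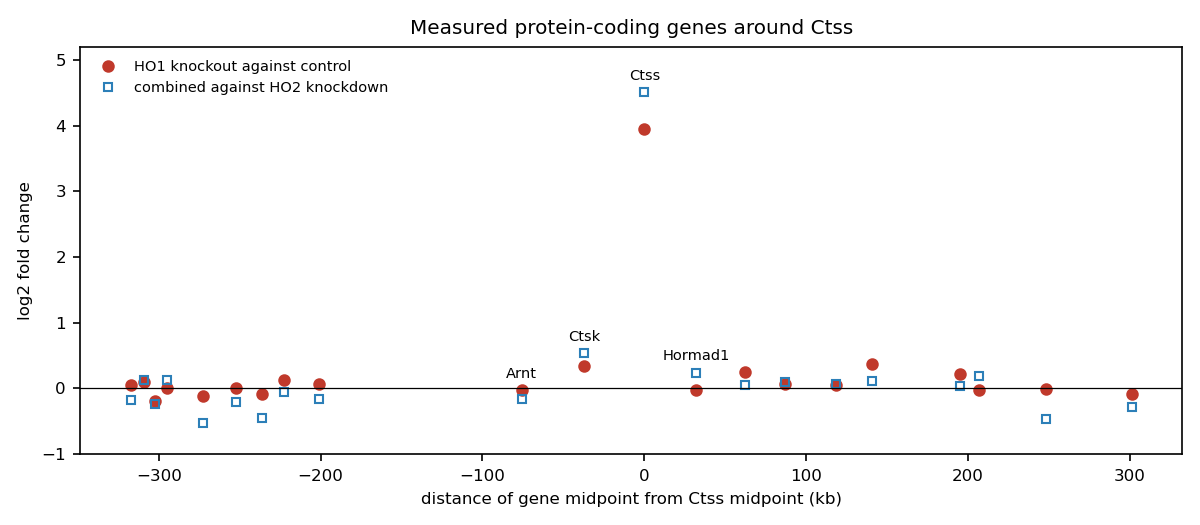
Log2 fold change of Ctss and the 20 other measured protein-coding genes within 300 kb, against the distance of each gene's midpoint from that of Ctss in kb, for HO1 knockout against control (filled circles) and combined against HO2 knockdown (open squares). Ctss lies at 3.95 and 4.51, and its neighbours between -0.53 and 0.53.

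Ctsc encodes cathepsin C, also called dipeptidyl peptidase 1, and lies at chr7:88278024-88315861. Its signals were 12.66 and 12.77 in control, 12.80 and 12.84 in HO1 knockout, 12.20 and 12.15 in HO2 knockdown, and 11.95 and 11.97 in combined. Every HO2 shRNA array lay below every scrambled array. Ctsc fell by 0.54 in HO2 knockdown against control (SE 0.0448, limma adjusted p = 1.43e-07) and by 0.86 in combined against HO1 knockout (SE 0.0448, limma adjusted p = 9.57e-10). The genotype contrast was 0.11 under the scrambled shRNA (limma adjusted p = 0.146) and -0.21 under the HO2 shRNA (limma adjusted p = 0.002). Ctsc thus did not follow Ctss, although both are set as macrophage-enriched.

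Ctse encodes cathepsin E and lies at chr1:131638314-131675507. Its signals were 10.69 and 10.71 in control, 10.66 and 10.69 in HO2 knockdown, 10.37 and 10.34 in HO1 knockout, and 9.93 and 9.89 in combined. It was the 1 member that was lower on all HO1-/- arrays. Ctse fell by 0.35 in HO1 knockout against control (SE 0.0548, limma adjusted p = 0.00033) and by 0.76 in combined against HO2 knockdown (SE 0.0548, limma adjusted p = 3.92e-08). Control and HO2 knockdown did not differ beyond their spread (-0.03, limma adjusted p = 0.728), while combined was below HO1 knockout by 0.45 (-0.45, limma adjusted p = 1.39e-05).

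Set side by side, the macrophage-enriched members had a mean log2 fold change of 1.01 in HO1 knockout against control and the broadly expressed members 0.24, a difference of 0.77. In combined against HO2 knockdown the means were 1.02 and 0.25, a difference of 0.76. Computed on each array, the mean of the former class minus that of the latter had a pooled SD between replicate arrays of 0.051. The class medians, 0.23 and 0.21 in HO1 knockout against control, were close. Without Ctss the difference of means changed sign, to -0.21 and -0.40, so 1 gene carries it. With the HO2 shRNA the macrophage-enriched mean was lower by 0.17 in both contrasts (-0.17 and -0.17). Its members ran from -0.54 (Ctsc) to 0.12 (Ctsk) in HO2 knockdown against control. In combined against HO1 knockout they ran from -0.86 (Ctsc) to 0.35 (Ctss). Leaving out Ctss left the difference at -0.15 and -0.34 in these contrasts. The difference without Ctsc, the lowest member in both, was not computed, so it is not shown to be a trait of the class. With Ctss kept, the difference in HO2 knockdown against control was -0.10 without HO2 knockdown replicate 1 and -0.23 without replicate 2. It was -0.072 with quantile normalization once more. The difference in combined against HO1 knockout was 0.0034 with Ctsh and Ctsz set as macrophage-enriched. These are descriptions of 4 and 6 genes, with no test.

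**Figure D3:**
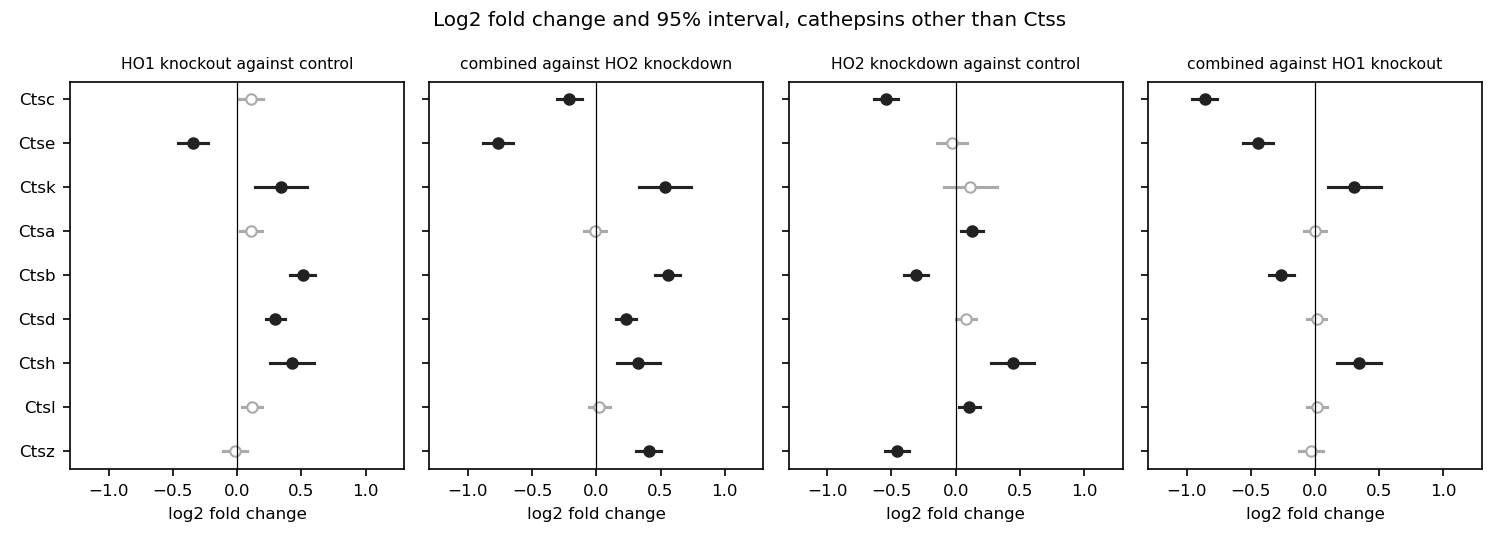
Log2 fold change with its 95% interval for the 9 cathepsins other than Ctss in 4 contrasts, with filled symbols where the adjusted p is under 0.05 and open symbols where it is not. Ctse lies left of 0 and Ctsb, Ctsd, Ctsh and Ctsk right of 0 in both genotype contrasts (the 2 panels on the left), and Ctsc falls in both shRNA contrasts.

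Ctsb encodes cathepsin B, an abundant lysosomal protease of hepatocytes, and lies at chr14:63122462-63145923. Its signals were 12.82 and 12.83 in control, 13.40 and 13.27 in HO1 knockout, 12.54 and 12.50 in HO2 knockdown, and 13.04 and 13.11 in combined. No 2 groups overlapped, and every step in the order HO1 knockout, combined, control, HO2 knockdown was called by limma. Ctsb rose by 0.51 in HO1 knockout against control (SE 0.0454, limma adjusted p = 5.84e-07) and by 0.56 in combined against HO2 knockdown (SE 0.0454, adjusted p = 1.94e-07). It fell by 0.31 in HO2 knockdown against control (limma adjusted p = 6.3e-05) and by 0.26 in combined against HO1 knockout (adjusted p = 0.000389). Its interaction term was 0.05 (limma adjusted p = 0.672), so genotype and shRNA moved it in opposite directions by sizes that added up within their error.

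Ctsd encodes cathepsin D, the main aspartic protease of lysosomes, and lies at chr7:142375910-142387827. Its signals were 13.17 and 13.13 in control, 13.26 and 13.20 in HO2 knockdown, 13.45 in both HO1 knockout arrays and 13.46 in both combined arrays. The arrays fell into a lower HO1+/+ set and a higher HO1-/- set. Ctsd rose by 0.30 in HO1 knockout against control (SE 0.0363, limma adjusted p = 2.24e-05) and by 0.23 in combined against HO2 knockdown (adjusted p = 0.000195). Its HO2 contrasts were 0.08 (limma adjusted p = 0.0922) and 0.01 (adjusted p = 0.883), of which the former passed the threshold once arrays were centred on their medians (0.14, adjusted p = 0.0157).

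Ctsh encodes cathepsin H, an aminopeptidase, and lies at chr9:90054267-90076095. Its signals were 10.34 and 10.67 in control, 10.92 and 10.95 in HO1 knockout, 10.91 and 10.99 in HO2 knockdown, and 11.25 and 11.31 in combined. Control was lowest and combined highest, and the arrays of HO1 knockout and HO2 knockdown overlapped. Ctsh rose by 0.43 in HO1 knockout (SE 0.0797, limma adjusted p = 0.00154) and by 0.44 in HO2 knockdown (SE 0.0797, adjusted p = 0.000415), each against control, and by 0.77 in combined against control (adjusted p = 1.37e-06). Combined was 0.34 above HO1 knockout (limma adjusted p = 0.00425), which was lost without combined replicate 2 (0.31, adjusted p = 0.054), and 0.33 above HO2 knockdown (adjusted p = 0.0051), which was lost without HO2 knockdown replicate 1 or combined replicate 2 (0.28 and 0.29, adjusted p = 0.0564 to 0.0639). The 2 control arrays of Ctsh differed more from each other than those of any other member, and without control replicate 2 the interaction term was called at -0.26 (adjusted p = 0.0355). Without control replicate 1 the rises in HO1 knockout and HO2 knockdown were 0.26 and 0.28, both still called by limma.

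Ctsz encodes cathepsin Z, also called cathepsin X, a carboxypeptidase, and lies at chr2:174427494-174439039. Its signals were 13.05 and 13.09 in control, 13.09 and 13.01 in HO1 knockout, 13.08 and 12.96 in combined, and 12.61 in both HO2 knockdown arrays. HO2 knockdown stood apart, and the other 3 groups overlapped. Ctsz fell by 0.45 in HO2 knockdown against control (SE 0.0446, limma adjusted p = 8.99e-07), while combined against HO1 knockout gave -0.03 (SE 0.0446, adjusted p = 0.704). The genotype contrast was -0.02 under the scrambled shRNA (limma adjusted p = 0.901) and 0.41 under the HO2 shRNA (adjusted p = 5.34e-06).

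Ctsl and Ctsa moved least. Ctsl, at chr13:64361890-64370772, encodes cathepsin L, a broadly acting endopeptidase, and its signals were 13.36 in both control arrays, 13.51 and 13.45 in HO1 knockout, 13.43 and 13.50 in HO2 knockdown, and 13.50 and 13.48 in combined. Ctsa, at chr2:164832872-164841032, encodes the protective protein that stabilises beta-galactosidase and neuraminidase 1, and its signals were 12.97 and 12.87 in control, 13.03 and 13.04 in HO1 knockout, 13.03 and 13.06 in HO2 knockdown, and 13.02 and 13.04 in combined. For both, control lay below the other 3 groups, which overlapped one another.

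The steps up from control were small. Ctsl was 0.11 higher in HO2 knockdown (SE 0.0373, limma adjusted p = 0.0372) and 0.13 higher in combined (adjusted p = 0.0131), and Ctsa was 0.12 higher in HO2 knockdown (SE 0.0402, limma adjusted p = 0.0272) and 0.11 higher in combined (adjusted p = 0.0495). In HO1 knockout against control neither was called (0.12, limma adjusted p = 0.0547, for Ctsl, and 0.11, adjusted p = 0.0861, for Ctsa). All 4 calls were lost without the mean-variance trend (limma adjusted p = 0.175 to 0.268) and with quantile normalization once more (0.0691 to 0.639). The call of Ctsl in HO2 knockdown was lost without 5 of the arrays in turn, either control, HO2 knockdown replicate 2 or either combined (0.07 to 0.11, adjusted p = 0.0561 to 0.255), and that in combined without control replicate 2 or either combined array (0.12 to 0.14, 0.051 to 0.102). The call of Ctsa in HO2 knockdown was lost without control replicate 2 or either HO2 knockdown array (0.07 to 0.14, adjusted p = 0.0657 to 0.214), and that in combined without any 1 array other than control replicate 1 (0.06 to 0.12, 0.0501 to 0.396). Conversely, HO1 knockout against control became a call for Ctsa without control replicate 1 (0.16, adjusted p = 0.0305) and for Ctsl without HO1 knockout replicate 2 (0.15, 0.0482). It also became a call for both with dim genes left out (limma adjusted p = 0.0499 for Ctsa and 0.0293 for Ctsl), and for Ctsl with a robust variance (0.0453), the mean of all probe sets (0.0479) or only genes with 1 probe set (0.041).

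The difference between the shRNA effects in the 2 genotypes, the interaction term, was called for 4 of the 10 cathepsins, 2 higher and 2 lower, where 12.2% of all genes were called, 4.67% higher and 7.57% lower. It was positive for Ctsz and Ctss and negative for Ctse and Ctsc. Hmox2 itself had 0.84 (limma adjusted p = 3.86e-05), and the part of its unequal knockdown in these terms was not tested. Ctsz had 0.42 (SE 0.0630, limma adjusted p = 0.000446) and Ctse -0.42 (SE 0.0775, adjusted p = 0.00241). Ctsc had -0.32 (SE 0.0633, limma adjusted p = 0.00395), lost without the mean-variance trend (0.0716) or with quantile normalization once more (0.0725). Ctss had 0.56 (SE 0.165, limma adjusted p = 0.0368), lost when any 1 array other than control replicate 2 or HO2 knockdown replicate 2 was left out (0.30 to 0.58, adjusted p = 0.0657 to 0.127) and when arrays were centred on their medians (0.0594).

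The other cathepsins were mostly dim. Of 11 measured, 9 were above the array median on 0 arrays, and Ctsf and Ctso on all. In HO1 knockout against control, where 5.62% of all genes rose and 7.2% fell, 0 rose and 1 fell by limma. That was Ctsw, by 0.41, with a list median of -0.05. In combined against HO2 knockdown, where 13% of all genes rose and 21% fell, Ctsg rose by 0.45 and Ctso fell by 0.20. Ctsw encodes a protease of cytotoxic lymphocytes and Ctsg a serine protease of neutrophils, and both were below the array median on every array. In HO2 knockdown against control 0 rose and 2 fell, Ctsw by 0.56 and Ctso by 0.23, against 16.5% and 16.7% of all genes. In combined against HO1 knockout Ctso fell by 0.33, and Ctsw was at -0.10 and not called by limma.

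Legumain, the lysosomal endopeptidase that converts several cathepsin precursors to their mature chains, rose with Ctss. Of 10 measured genes for inhibitors and processing, Lgmn was the 1 called in HO1 knockout against control, where 12.8% of all genes were called. It was higher by 1.35 (SE 0.0453, limma adjusted p = 1.94e-12). Of the 10, 7 were above the array median on 0 arrays, namely Cst6, Cst7, Csta1, Stfa2, Stfa3, Cst9 and Cst10. In combined against HO2 knockdown Lgmn rose by 0.98 and Cst3, the gene for cystatin C, a secreted cathepsin inhibitor, by 0.26. There 0 fell, where 13% of all genes rose and 21% fell. Cstb, the gene for cystatin B, an inhibitor inside the cell, fell with the HO2 shRNA, by 0.28 against control and by 0.27 against HO1 knockout. The list medians were 0.01 and 0.13 in the genotype contrasts.

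Genes for delivery to lysosomes and for the transcription factors of lysosomal genes were counted next. In HO1 knockout against control, where 5.62% of all genes rose and 7.2% fell, 3 of 10 rose and 1 fell, with a median of 0.15. Sort1, the gene for sortilin, which was named after its value was seen, rose most, by 1.20 (SE 0.0756, limma adjusted p = 7.61e-09). Psap, the precursor of the saposins, rose by 0.45 and Mitf, a relative of TFEB, by 0.32. Tfeb was at 0.22 and Tfe3 at 0.07, neither called by limma. In combined against HO2 knockdown 3 rose and 1 fell, against 13% and 21% of all genes. Sort1 was at 0.58, Psap at 0.37 and Mitf at 0.23.

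Other lysosomal hydrolases changed by less than Ctss. Of 24 measured, 9 rose and 1 fell in HO1 knockout against control, with a median of 0.11, against 5.62% and 7.2% of all genes. In combined against HO2 knockdown 5 rose and 8 fell, with a median of -0.07, against 13% and 21% of all genes. Hexa, a subunit of beta-hexosaminidase, rose by 0.22 and 0.52 in these contrasts. Gaa, acid alpha-glucosidase, fell by 0.20 and 0.76, and Tpp1, a tripeptidase, was at 0.09 (not called) and then fell by 0.59. With the HO2 shRNA against control 8 rose and 7 fell, where 16.5% and 16.7% of all genes did. Among the hydrolases Gaa was higher by 0.22 and Hexa lower by 0.37 (-0.37).

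Lysosomal membrane and proton pump genes were similar, with 1 exception. Of 21 measured, 3 rose and 2 fell in HO1 knockout against control, with a median of 0.01, against 5.62% and 7.2% of all genes. In combined against HO2 knockdown 3 rose and 9 fell, with a median of -0.12, against 13% and 21%. Atp6v0d2, a pump subunit of macrophages and osteoclasts, rose by 2.53 and 3.09. Lamp1, the abundant membrane glycoprotein, rose by 0.14 in HO1 knockout against control. In HO2 knockdown against control 10 rose and 4 fell, against 16.5% and 16.7% of all genes, with Lamp1 higher by 0.18 and Lamp2 by 0.26.

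Cathepsin S acts on the invariant chain, whose gene Cd74 rose with it. Of 7 measured class II presentation genes 3 rose and 0 fell in HO1 knockout against control, with a median of 0.29. In combined against HO2 knockdown 5 rose and 0 fell, with a median of 0.39. All-gene shares were 5.62% higher and 7.2% lower in the former, and 13% and 21% in the latter. Ciita, H2-Aa and H2-Eb1 were above the array median on 0 arrays. Cd74 rose by 1.29 and 2.91, and Ifi30, the lysosomal thiol reductase, by 0.33 and 0.73. Of 9 osteoclast genes that accompany cathepsin K, 2 rose and 0 fell in the former contrast and 3 rose and 0 fell in the latter. Oscar, Calcr, Dcstamp and Ocstamp of that list were above the array median on 0 arrays. Acp5, the tartrate-resistant acid phosphatase, rose by 0.73 and 0.70. Mmp9, a secreted gelatinase, was at -0.12 (not called by limma) and then rose by 1.10. It was at -1.64 in HO2 knockdown against control, and combined was still below control (-0.54, limma adjusted p = 6.45e-06). The macrophage markers given with Ctss moved in the same contrasts, and their part in these lists was not tested either.

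**Figure D4:**
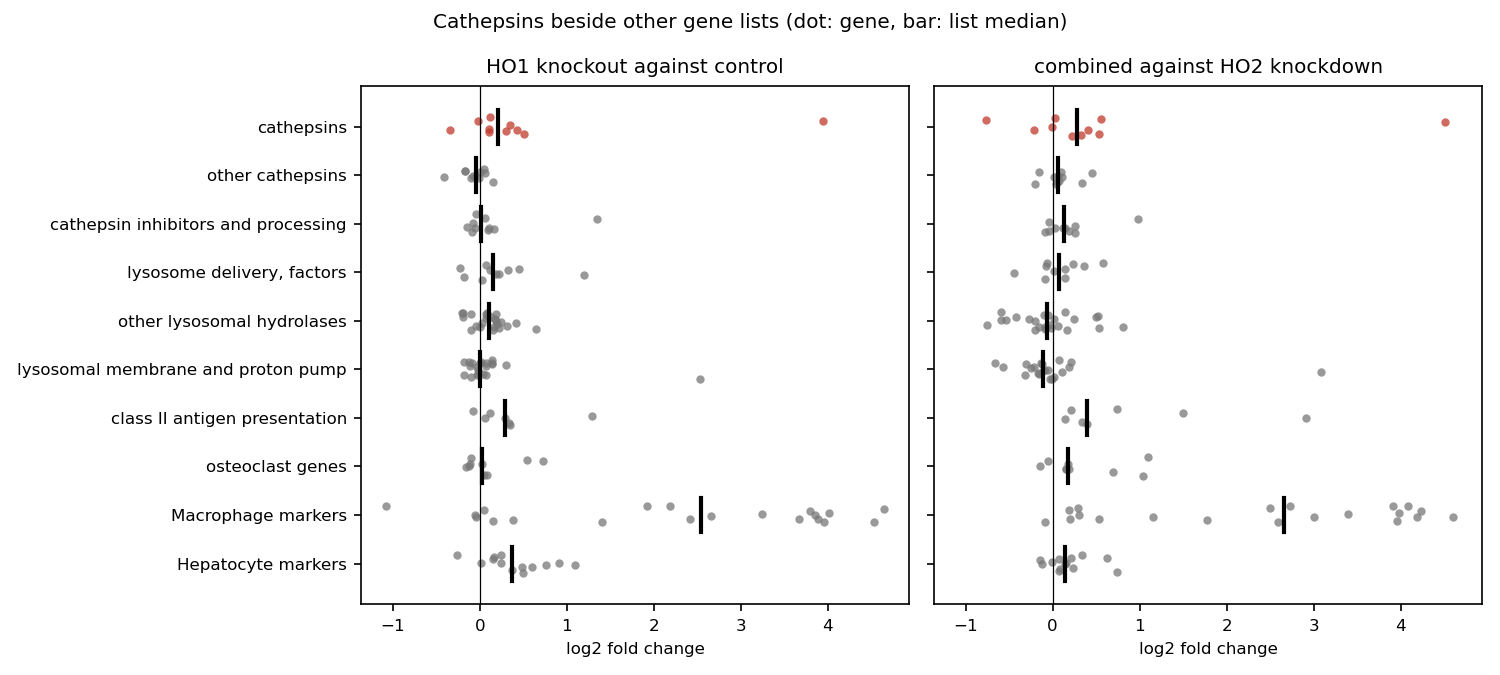
Log2 fold change of each measured gene (dots) and the list median (bars) for the 10 cathepsins, 7 lists of related lysosomal, class II and osteoclast genes, and macrophage and hepatocyte markers, in HO1 knockout against control (left) and combined against HO2 knockdown (right). The cathepsin dots lie between -0.76 and 0.56 except Ctss at 3.95 and 4.51, which lies within the range of the macrophage markers (medians 2.54 and 2.66).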

How the data were processed

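Total RNA (300 ng an array) of 8 samples was hybridised to arrays, 2 for each of 4 groups read from the labels. The deposited values are log2 signals per probe set that the authors made by RMA with affy (R 2.15.0) according to the labels, per the submitters' processing notes; neither a chip definition file nor a build is given there. RMA quantile-normalizes arrays, so a shift of all genes cannot be seen. Array medians ran from 7.61 to 7.70.

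Of 34760 probe sets, 21640 carried 1 gene symbol in the platform's annotation, 1321 several and 11799 none. Where a gene had several (954 genes) the brightest probe set stood for it, leaving 19937 genes, of which 19855 matched RefSeq (GRCm38.p6) by gene ID and 82 did not. Positions and promoters are RefSeq's. Entries of the lists without a probe set of their own symbol were not analysed here.

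Values were fitted as 4 group means over all 8 arrays with limma 3.58.1 (R 4.3.3; lmFit, eBayes with a trend), with 4 residual and 11.2 prior degrees of freedom, and SE is the moderated standard error. The fit was tested on simulated data. HO1 knockout against HO2 knockdown was added after the values were seen, only to order neighbouring groups. All 10 members are named with every array. From each gene list counts, the median and preset genes are given, and the genes most like a member have the smallest root mean square difference of centred values, for members spanning at least 1. Members and lists were chosen with earlier results of these data known. Same-numbered replicates did not deviate together (correlations -0.26 to 0.12 over 6 group pairs, 1 above 0.1), so the arrays were not paired. Alternatives changed the normalization, the variance model, the weighting of arrays, the handling of dim genes and of several probe sets, the threshold, the pairing and the arrays used. Arrays have no read depth. Precision was limited by 2 arrays a group and also differed between genes, with SEs of the members from 0.0363 to 0.117 in HO1 knockout against control.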

Additional observations from a re-analysis of the deposited data

Results flagged for a closer look

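For 4 cathepsins the effect of the HO2 shRNA differed between the HO1 genotypes by the interaction term of the fit across all genes. Hmox2 also fell less with the shRNA in HO1-/- arrays (interaction term 0.84), and its part in these differences was not tested. For Ctsz the term was 0.42 (limma adjusted p = 0.000446), since Ctsz fell with the shRNA in HO1+/+ arrays alone. For Ctse it was -0.42 (adjusted p = 0.00241) and for Ctsc -0.32 (adjusted p = 0.00395), each lower in combined than the separate effects add up to. For Ctss it was 0.56 (limma adjusted p = 0.0368), the least stable of the 4. With 2 arrays a group, single outlying arrays could not be looked for.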

How the results depend on the processing

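Across 10 members and 6 comparisons, 1184 values were recomputed under the alternatives. Of these 1075 kept their direction and side of the threshold, 99 lost it (30 of them where a change of at least 1.5-fold was asked for), 10 gained it and 0 reversed. The number of cathepsins called, in the order HO1 knockout, HO2 knockdown and combined against control, combined against HO1 knockout, combined against HO2 knockdown and interaction, was 1, 0, 5, 1, 2 and 0 when at least 1.5-fold was asked for. Leaving out each array in turn gave 5 to 6, 4 to 6, 7 to 9, 3 to 6, 7 to 8 and 3 to 5, with 3 in combined against HO1 knockout without combined replicate 2. The interaction count was 2 without the mean-variance trend and 2 with quantile normalization once more. With the replicate number as a block (replicate block) the counts were 6, 6, 9, 6, 8 and 4, and no member's call changed.

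The mean of the macrophage-enriched members minus that of the broadly expressed members, in the first 5 of these comparisons, ranged over left-out arrays from 0.74 to 0.80, -0.23 to -0.10, 0.59 to 0.60, -0.20 to -0.15 and 0.70 to 0.83. Quantile normalization gave -0.072 for HO2 knockdown against control and 0.71 for combined against HO2 knockdown. With Ctsh and Ctsz set as macrophage-enriched the 5 values were 0.48, -0.11, 0.49, 0.0034 and 0.60. With medians they were 0.018, -0.24, -0.074 and -0.12 for HO1 knockout against control, combined against control, combined against HO1 knockout and combined against HO2 knockdown. Without Ctss, an alternative chosen after seeing the data, those 4 were -0.21, -0.55, -0.34 and -0.40.

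Over all genes, a change of at least 1.5-fold was called for 622, 1271, 1528, 989, 889 and 570 genes, in the order above, beside 2557, 6620, 5964, 4587, 6775 and 2442. An adjusted p under 0.01 gave 1575 in HO1 knockout against control, 4283 in combined against HO2 knockdown and 1065 in the interaction. HO1 knockout against control gave 1704 without HO1 knockout replicate 1, and combined against HO2 knockdown 3827 without HO2 knockdown replicate 1 and 4485 and 4072 without combined replicate 1 or 2. The interaction gave 1359 without the trend, 4744 without control replicate 2, and 1301 to 1526 without HO1 knockout or HO2 knockdown replicate 1 or either combined array. Centring arrays on their medians moved the share of called genes that were higher from 49.7% to 62.9% in HO2 knockdown against control, from 38.2% to 24.1% in combined against HO2 knockdown and from 38.2% to 27.1% in the interaction. The causes of these changes were not tested.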
